A study of Homo sapiens with 4 samples.

Results

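Transcripts of 10 human fatty acid desaturases and elongases were followed in bladder cancer cells carrying a knockdown of SCD1. The members are SCD, SCD5, FADS1, FADS2, FADS3, ELOVL1, ELOVL4, ELOVL5, ELOVL6 and ELOVL7. They were taken by gene name from the deposited table of each cell line, and all 10 were found in both, among 30148 genes in the UMUC3 table and 17752 in the SW780 table. The study had 4 groups of 1 RNA-seq library each: UMUC3 shSCD1 and UMUC3 shNT, SW780 shSCD1 and SW780 shNT. The shSCD1 cells carried a lentiviral knockdown of SCD1, whose gene symbol is SCD, and the shNT cells have their genotype given as WT. Both lines are human bladder cancer cell lines grown with fetal bovine serum, UMUC3 in MEM and SW780 in DMEM, so line and medium cannot be told apart. The labels name neither the hairpin nor its number, and do not say whether the knockdown cells were 1 clone or a pool.

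Desaturases place double bonds in fatty acyl chains, and elongases carry out the first and rate-limiting step by which a chain grows in the endoplasmic reticulum. SCD makes oleate and palmitoleate from saturated acyl-CoA. FADS2 and then FADS1 act in the conversion of the essential polyunsaturated fatty acids. The ELOVL enzymes differ in the length and saturation of the chains they take. Many of these genes are known targets of the transcription factor SREBP1, whose activity falls when polyunsaturated fatty acids are plentiful. In tumour cells FADS2 is also known to desaturate palmitate to sapienate, a route that bypasses SCD.

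Reads summed over the genes of each table came to 32540576 in UMUC3 shSCD1 and 22818368 in UMUC3 shNT, and to 25549737 in SW780 shSCD1 and 34087871 in SW780 shNT. The members had between 47 reads (ELOVL4 in UMUC3 shNT) and 20178 reads (SCD in SW780 shNT). With 1 library per group there was no replicate check and no test within a line. Levels are CPM, a gene's reads for each 1000000 reads of its table, and folds are shSCD1 CPM over shNT CPM with an exact 95% interval that covers counting error only. Log2 ratios are log2((shSCD1 CPM + 1)/(shNT CPM + 1)), which understates the change of weak genes. A gene passed the size rule when its log2 ratio reached 1 or −1 and 1 of its libraries held at least 1 CPM. The headers call the libraries first and second, and the second was read as shSCD1 because each table carries that name, so every direction in a line rests on that reading. The 12 bladder epithelial markers summed to 263 CPM in UMUC3 shSCD1 and 535 CPM in UMUC3 shNT, with 5 of them at 0 reads or not listed (KRT19, UPK1B, EPCAM, CDH1 and UPK3A). They summed to 10225 CPM in SW780 shSCD1 and 12402 CPM in SW780 shNT, where 11 of 12 reached 1 CPM. The 5 mesenchymal markers summed to 2558 and 3116 CPM in UMUC3 shSCD1 and shNT, and to 879 and 374 CPM in SW780 shSCD1 and shNT. Fibroblast markers stood at 0.676 and 2.15 CPM in UMUC3 shSCD1 and shNT, and at 250 and 178 CPM in SW780 shSCD1 and shNT. Of the SW780 sums, COL3A1 held 203 and 139 CPM, LUM 40.0 and 35.9 CPM and COL1A1 6.69 and 2.90 CPM. COL1A2 and DCN had 0 reads there. Adipocyte markers, of a cell type with abundant SCD, summed to no more than 0.391 CPM in any library. These marker sums moved with the groups, but not every marker moved with its sum. EPCAM, for example, stood at 105 CPM in SW780 shSCD1 and 76.5 CPM in SW780 shNT. The part of the markers in the results was not tested. In bulk RNA, fewer cells of a type and less RNA per cell cannot be told apart.

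The first comparison asked how much lower the targeted desaturase was and where its paralog stood. SCD, the main stearoyl-CoA desaturase of human tissues, was the only member lower by the size rule in either line. SCD (ENSG00000099194) lies on chromosome 10, 100347124 to 100364834, plus strand (GRCh38, GENCODE 29). It stood at 59.6 CPM in UMUC3 shSCD1 and 264 CPM in UMUC3 shNT, a log2 ratio of −2.13, and at 92.1 CPM in SW780 shSCD1 and 592 CPM in SW780 shNT, a log2 ratio of −2.67. The fold was 4.44 downward in UMUC3 (4.22 to 4.67). For SW780 it was 6.43 downward (6.16 to 6.71). Only 40 of 14063 genes had a lower log2 ratio in UMUC3, and 10 of 12880 in SW780. By the same rule 2.18% of all genes were lower in UMUC3 and 1.06% in SW780. The shSCD1 libraries of both lines thus kept measurable SCD, from 1938 reads in UMUC3 and 2353 reads in SW780.

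SCD5, a second stearoyl-CoA desaturase found in humans but not in mice, was slightly higher in the shSCD1 library of both lines. SCD5 (ENSG00000145284) lies on chromosome 4, 82629539 to 82798857, minus strand. It stood at 22.2 CPM in UMUC3 shSCD1 and 18.3 CPM in UMUC3 shNT, 1.21-fold higher (1.07 to 1.37). SCD5 had 16.0 CPM in SW780 shSCD1 and 13.1 CPM in SW780 shNT, 1.23-fold higher (1.07 to 1.41). Neither ratio came near the size rule. In the authors' deposited table the GFOLD of SCD5, a fold change shrunk towards 0 by counting error, was 0 in UMUC3 and 0.07 in SW780. Of the 14063 genes in UMUC3, 3876 had a higher log2 ratio than SCD5, and 1926 of 12880 did in SW780.

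The level of SCD5 relative to SCD therefore differed far more between libraries than SCD5 itself. Per kilobase of the longest coding transcript, SCD5 made up 39.2% (37.1 to 41.2) of the summed level of the pair in UMUC3 shSCD1 and 10.7% (9.77 to 11.7) in UMUC3 shNT. The share was 23.2% (21.3 to 25.1) in SW780 shSCD1 and 3.67% (3.35 to 4.02) in SW780 shNT. The intervals are exact 95% binomial ones of the reads, scaled by transcript length. The summed level of the pair was 18.3 CPM per kb in UMUC3 shSCD1 and 55.2 in UMUC3 shNT, and 22.4 in SW780 shSCD1 and 115 in SW780 shNT, which is 3.02-fold and 5.13-fold lower. SCD remained the larger part of the pair in all 4 libraries.

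The sequences before the start sites of 4 members are shown because they are the targeted gene, its paralog and the 2 elongases past the size rule in UMUC3. Each runs 5′ to 3′ on the gene's own strand and comes from RefSeq (GRCh38.p14). It begins 250 bases before the RefSeq start and ends where the outermost GENCODE 29 transcript begins. Capitals mark CCAAT, the box bound by the factor NF-Y (or its reverse, ATTGG), and CACGTG, the E-box.
SCD, chr10:100346983-100347123, plus strand: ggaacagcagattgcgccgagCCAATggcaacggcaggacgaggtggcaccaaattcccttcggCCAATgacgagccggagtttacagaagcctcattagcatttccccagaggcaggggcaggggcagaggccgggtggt
SCD5, chr4:82798858-82799046, minus strand: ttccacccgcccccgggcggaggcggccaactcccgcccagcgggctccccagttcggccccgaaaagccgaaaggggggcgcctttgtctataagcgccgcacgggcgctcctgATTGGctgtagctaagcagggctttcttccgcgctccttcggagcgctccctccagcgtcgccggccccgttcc
ELOVL4, chr6:79947581-79947803, minus strand: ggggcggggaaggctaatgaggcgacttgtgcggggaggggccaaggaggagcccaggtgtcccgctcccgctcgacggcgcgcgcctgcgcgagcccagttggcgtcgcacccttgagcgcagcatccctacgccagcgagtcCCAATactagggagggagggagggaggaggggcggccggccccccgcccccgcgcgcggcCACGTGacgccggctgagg
ELOVL7, chr5:60844390-60844519, minus strand: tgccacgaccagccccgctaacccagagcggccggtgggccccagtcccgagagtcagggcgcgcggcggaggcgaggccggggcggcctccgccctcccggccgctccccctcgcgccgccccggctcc
The SCD stretch held CCAAT at positions −229 and −186 relative to the RefSeq start, both on the gene's strand. SCD5 held 1 at −135 on the opposite strand. The ELOVL4 stretch held CCAAT at −106 and an E-box at −46, and ELOVL7 held neither.

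Over the full 250 bases before the RefSeq start, 6 of the 10 members held at least 1 CCAAT on either strand: SCD, SCD5, FADS3, ELOVL1, ELOVL4 and ELOVL5. Of 35116 such windows in the table, 32.0% held one. The E-box was found in ELOVL4 and ELOVL5 and in 6.34% of all windows. The sterol regulatory element core TCACNCCAC was found in 0 of the 10 members and in 0.883% of all windows. A match describes letters alone and is no evidence of binding, and a missing match says only that the letters are not in this window. Members with CCAAT stood on both sides of 0 in UMUC3 and in SW780.

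**Figure D1:**
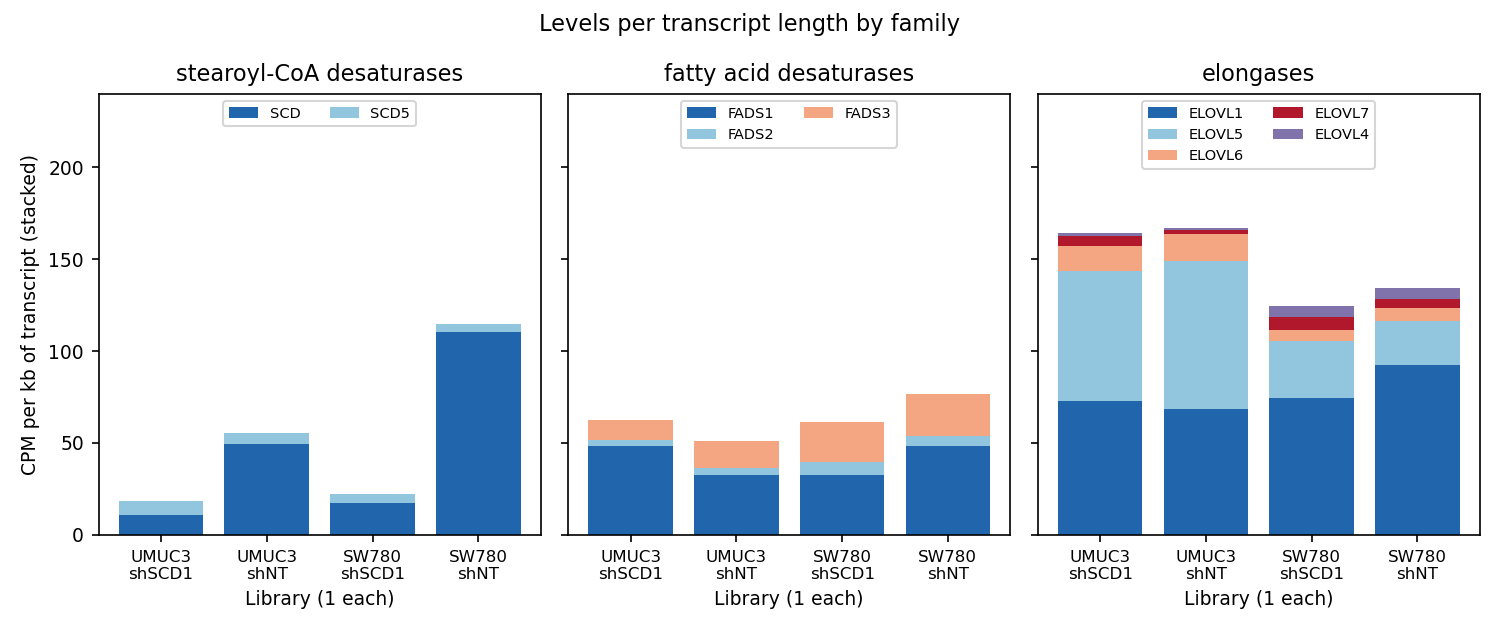
Stacked bars give the level of each member in CPM per kb of its longest coding transcript, in 1 library per bar, for the stearoyl-CoA desaturases, the FADS desaturases and the elongases. The SCD bar shrinks in both shSCD1 libraries, whereas the summed elongases stay between 125 and 167 CPM per kb.

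The FADS desaturases share a gene cluster on chromosome 11. FADS2 and then FADS1 carry out successive desaturations towards arachidonate and eicosapentaenoate, and FADS3 acts on sphingoid bases. None of the 3 passed the size rule in either line, in which 2.47% of all genes in UMUC3 and 1.48% in SW780 were higher and the shares given for SCD were lower. FADS1 was higher in UMUC3 shSCD1 and lower in SW780 shSCD1.

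FADS1 (ENSG00000149485, 61799625 to 61829318, minus strand) stood at 218 CPM in UMUC3 shSCD1 and 148 CPM in UMUC3 shNT, 1.47-fold higher (1.42 to 1.54). The SW780 levels of FADS1 were 149 CPM in shSCD1 and 220 CPM in shNT, 1.48-fold lower (1.42 to 1.54). The 2 folds were nearly the same in size and opposite in direction, with log2 ratios of 0.56 and −0.56. In UMUC3 1564 of 14063 genes had a higher ratio, and in SW780 536 of 12880 had a lower one. Per kilobase of the longest coding transcript, FADS1 stood at 4.34 times SCD in UMUC3 shSCD1 and 1.91 times in SW780 shSCD1. The shNT libraries of UMUC3 and SW780 had 0.663 and 0.440 times. The order in SW780 shSCD1 depended on the length used. Per kilobase of all annotated exons, FADS1 stood at 14.5 and SCD at 17.2 there, against 21.3 and 11.1 in UMUC3 shSCD1.

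FADS2 (ENSG00000134824, 61792980 to 61867354, plus strand) stood at 12.4 CPM in UMUC3 shSCD1 and 14.4 CPM in UMUC3 shNT, a fold of 0.864 whose interval reached 1 (0.745 to 1.002). In SW780 it stood at 23.9 CPM in shSCD1 and 19.7 CPM in shNT, 1.21-fold higher (1.09 to 1.36). Its log2 ratios of −0.20 and 0.27 thus ran against those of FADS1 in each line. The ratio of FADS1 to FADS2 per kilobase was 14.1 in UMUC3 shSCD1 and 8.25 in UMUC3 shNT, and 4.98 in SW780 shSCD1 and 8.95 in SW780 shNT. FADS1 and FADS2 overlap on opposite strands in the annotation. Exons of FADS2 or of the microRNA gene MIR1908 cover 5.57% of FADS1 exonic bases, and exons of FADS1 or FEN1 cover 4.89% of those of FADS2. Whether reads were counted by strand is not given in the sources used here, so reads from those stretches cannot be assigned to 1 gene.

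FADS3 (ENSG00000221968, 61873519 to 61892051, minus strand) stood at 19.6 CPM in UMUC3 shSCD1 and 25.8 CPM in UMUC3 shNT, 1.32-fold lower (1.18 to 1.47). FADS3 in SW780 stood at 39.1 CPM in shSCD1 and 40.2 CPM in shNT, a fold of 0.973 (0.896 to 1.06). The interval of FADS3 spanned 1 in SW780 alone. Summed per kilobase, the 3 FADS genes stood at 62.7 CPM per kb in UMUC3 shSCD1 and 51.2 in UMUC3 shNT, and at 61.4 in SW780 shSCD1 and 76.6 in SW780 shNT. FADS1 was the largest part of that sum in all 4 libraries, from 53.5% in SW780 shSCD1 to 77.0% in UMUC3 shSCD1.

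**Figure D2:**
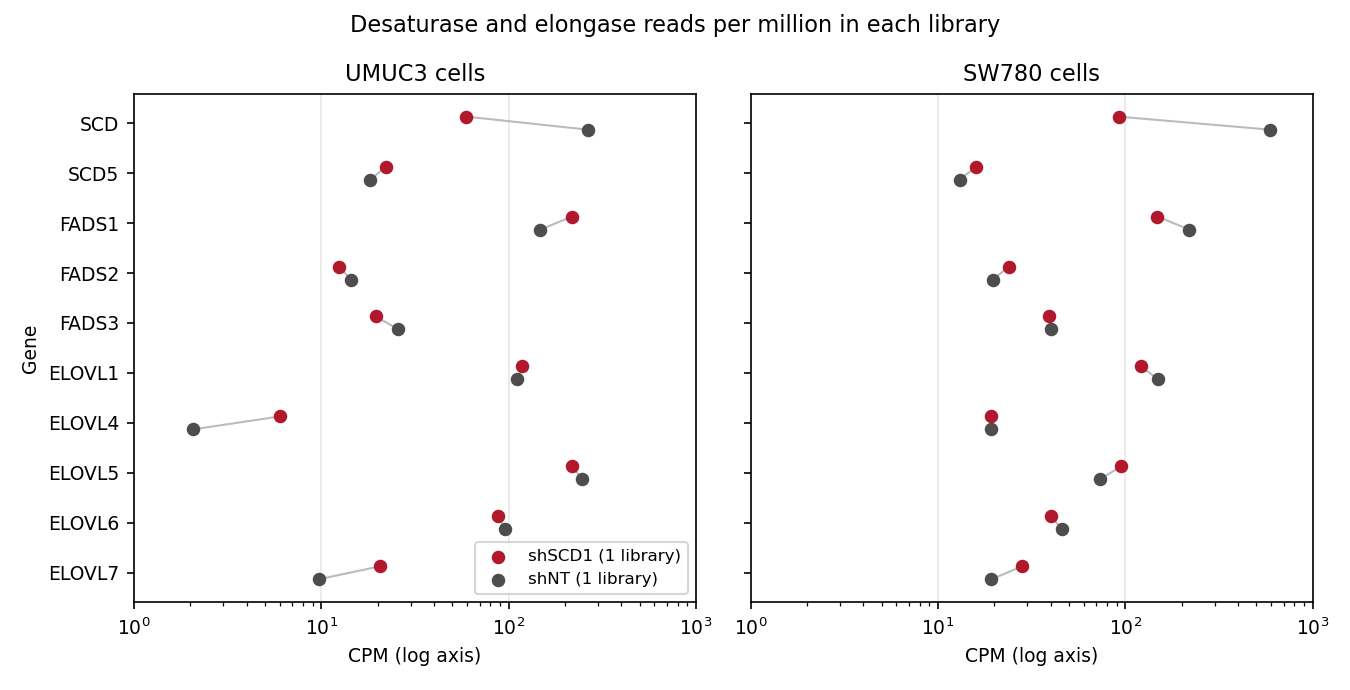
Each row is a member and each point its CPM in 1 library on a log axis, with shSCD1 above and shNT below it. SCD has the widest gap in both lines, and the FADS1 points change sides between UMUC3 (218 against 148 CPM) and SW780 (149 against 220 CPM).

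Among the elongases, ELOVL7 and ELOVL4 were higher by the size rule in UMUC3, and none passed it in SW780. By that rule 2.47% of all genes were higher in UMUC3 and 1.48% in SW780. ELOVL7 lengthens saturated long-chain acyl-CoA. ELOVL7 (ENSG00000164181, chromosome 5, 60751791 to 60844389, minus strand) stood at 20.6 CPM in UMUC3 shSCD1 and 9.69 CPM in UMUC3 shNT, 2.13-fold higher (1.82 to 2.49). ELOVL7 in SW780 stood at 28.1 CPM in shSCD1 and 19.3 CPM in shNT, 1.46-fold higher (1.31 to 1.62). Its log2 ratios of 1.01 and 0.52 were exceeded by 332 of 14063 genes and by 796 of 12880. In UMUC3 the value lay just past the rule, and it was 0.98 with ratios centred on the median of all genes.

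ELOVL4, which makes the very long polyunsaturated chains of retina and the very long chains of skin ceramides, was weakly expressed in UMUC3. ELOVL4 (ENSG00000118402, chromosome 6, 79914812 to 79947580, minus strand) had 196 reads in UMUC3 shSCD1 and 47 in UMUC3 shNT, or 6.02 and 2.06 CPM, 2.92-fold higher (2.12 to 4.11). In SW780 it stood at 19.1 CPM in shSCD1 and 19.2 CPM in shNT, a fold of 0.998 (0.885 to 1.12). The UMUC3 log2 ratio of 1.20 was 0.64 with 5 CPM added instead of 1.

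ELOVL5, which lengthens polyunsaturated chains between the FADS steps, stood on opposite sides in the lines. ELOVL5 (ENSG00000012660, chromosome 6, 53267398 to 53349179, minus strand) stood at 218 CPM in UMUC3 shSCD1 and 247 CPM in UMUC3 shNT, 1.13-fold lower (1.10 to 1.18). The SW780 levels of ELOVL5 were 95.1 CPM in shSCD1 and 73.0 CPM in shNT, 1.30-fold higher (1.23 to 1.38). ELOVL5 thus ran against FADS1 in both lines.

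ELOVL1, which builds the very long saturated and monounsaturated chains of sphingolipids, also stood on opposite sides, by less. ELOVL1 (ENSG00000066322, chromosome 1, 43363397 to 43368074, minus strand) stood at 118 CPM in UMUC3 shSCD1 and 111 CPM in UMUC3 shNT, 1.07-fold higher (1.01 to 1.12). The SW780 levels of ELOVL1 were 121 CPM in shSCD1 and 150 CPM in shNT, 1.25-fold lower (1.19 to 1.30). In UMUC3 the authors' deposited table gives ELOVL1 a log2 fold change of 0.01 and a GFOLD of 0, GFOLD being their fold change shrunk towards 0 by counting error.

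ELOVL6 makes stearate from palmitate and so supplies a substrate of SCD. ELOVL6 (ENSG00000170522, chromosome 4, 110045846 to 110199199, minus strand) was lower by a small margin in both lines. It stood at 88.1 CPM in UMUC3 shSCD1 and 96.2 CPM in UMUC3 shNT, 1.09-fold lower (1.03 to 1.15), and at 40.1 CPM in SW780 shSCD1 and 46.0 CPM in SW780 shNT, 1.15-fold lower (1.06 to 1.24). Per kilobase, SCD stood at 0.813 times ELOVL6 in UMUC3 shSCD1 and 3.31 times in UMUC3 shNT, and at 2.76 times in SW780 shSCD1 and 15.5 times in SW780 shNT. The balance of these enzyme transcripts thus differed between libraries through SCD, while ELOVL6 itself differed little.

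**Figure D3:**
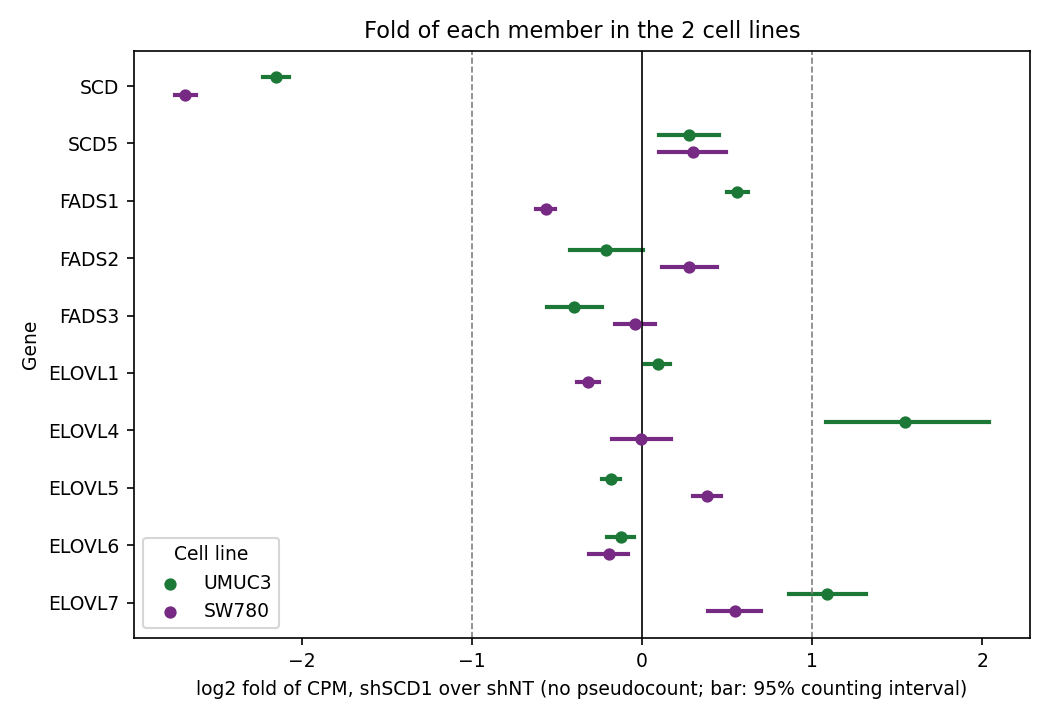
Points give the log2 of each member's fold of CPM (shSCD1 over shNT, nothing added) in UMUC3 and SW780, and bars its 95% counting interval; dashed lines mark 2-fold. SCD lies far left in both lines, ELOVL4 and ELOVL7 lie past 2-fold in UMUC3, and FADS1 lies at mirrored positions.

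Set side by side, the counting interval of the fold lay above 1 for 5 members and below 1 for 4 in UMUC3, and above 1 for 4 and below 1 for 4 in SW780. Over all genes 35.9% lay above and 29.6% below in UMUC3, and 28.0% above and 29.8% below in SW780; such an interval narrows as reads increase. Intervals lay on opposite sides in the lines for 3 of 10 members (FADS1, ELOVL1 and ELOVL5), and for 20.1% of the 11152 genes kept in both lines. They lay on the same side for 4 of 10 (SCD, SCD5, ELOVL6 and ELOVL7), and for 21.1% of those genes. The difference between the lines was not tested, because 1 library per group leaves no residual degrees of freedom. Without SCD, the 9 other members had a median log2 ratio of 0.09 in UMUC3, where the median of all genes was 0.04, and of −0.003 in SW780, where it was −0.008. Summed per kilobase, those 9 stood at 234 CPM per kb in UMUC3 shSCD1 and 224 in UMUC3 shNT, and at 191 in SW780 shSCD1 and 215 in SW780 shNT.

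**Figure D4:**
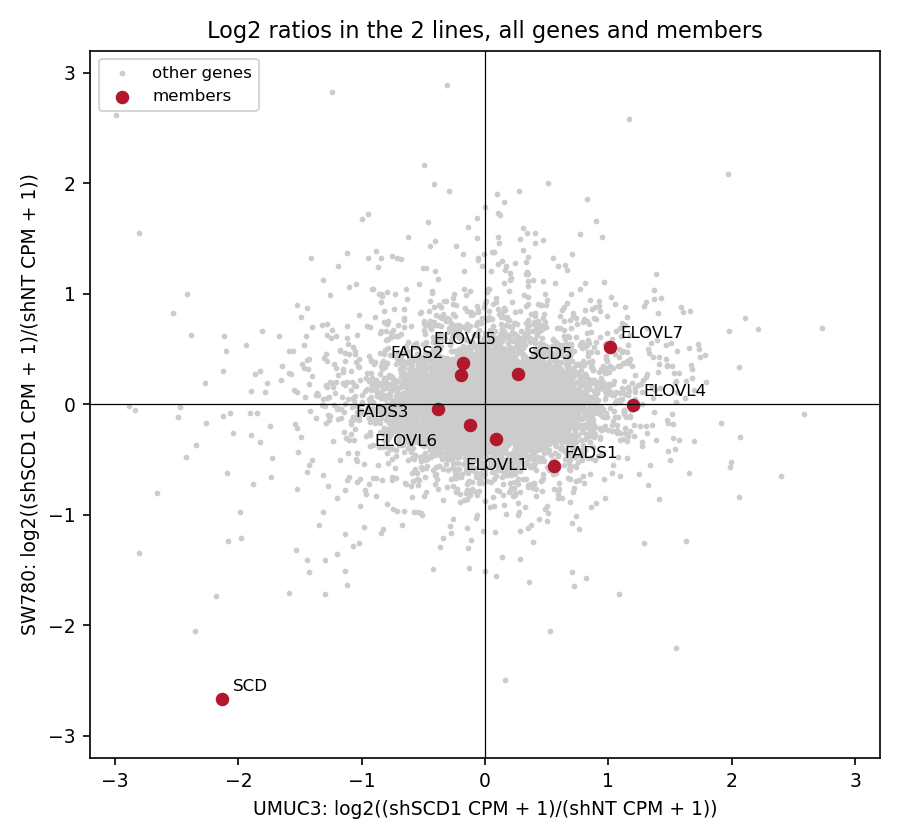
Each grey point is one of the genes with at least 1 CPM in both lines, with its log2 ratio in UMUC3 on the x axis and in SW780 on the y axis; 11137 lie within the axes and 15 outside. SCD lies at −2.13 and −2.67, away from the other 9 members, which lie among the bulk of genes or at its right edge.

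The order of the members per kilobase of the longest coding transcript also differed between libraries. In UMUC3 shSCD1 the highest were ELOVL1 at 72.9 CPM per kb (70.6 to 75.3) and ELOVL5 at 70.7 (69.1 to 72.4), which overlap in counting error. FADS1 followed at 48.2. SCD ranked 5 at 11.1 and overlapped in counting error with FADS3 at 11.0. In UMUC3 shNT ELOVL5 came first at 80.3 CPM per kb, then ELOVL1 at 68.4, SCD at 49.3 and FADS1 at 32.7. In SW780 shSCD1 ELOVL1 came first at 74.4, and FADS1 at 32.8 and ELOVL5 at 30.9 overlapped, with SCD at rank 5 with 17.2. In SW780 shNT SCD came first at 110 CPM per kb (109 to 112), ahead of ELOVL1 at 92.6 and FADS1 at 48.6. SCD thus ranked 5 in both shSCD1 libraries, against 3 in UMUC3 shNT and 1 in SW780 shNT. ELOVL4 was last in UMUC3 and SCD5 last in SW780, in the shSCD1 and the shNT library alike. In SW780 shNT, however, SCD5 at 4.21 overlapped in counting error with ELOVL7 at 4.63. With the union of all annotated exons as the length, SCD ranked 3 in SW780 shSCD1 and 2 in UMUC3 shNT, and FADS2 was last in both SW780 libraries and in UMUC3 shSCD1. By that length FADS3 stood at 3.12 CPM per kb in UMUC3 shSCD1, below SCD at 11.1. The 2 tables hold different gene sets, so levels in one line are not strictly on the scale of the other. Over the 15415 genes in both tables, SCD stood at 61.5 and 273 CPM in UMUC3 shSCD1 and shNT, and at 93.6 and 603 CPM in SW780 shSCD1 and shNT.

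The one comparison with any spread between libraries joined the lines (limma on log2(CPM + 1), blocked by line, 2 shSCD1 against 2 shNT libraries). That spread is the difference between the lines in the shSCD1 to shNT ratio, not variation between replicates. At an adjusted p of 0.05 it called 1 of 11152 genes (0.00897%), the chloride channel gene BEST1, and 0 of the 10 members. At an unadjusted p under 0.05 it counted 481 genes, 4.31% of those tested. SCD ranked 2 among all genes, with a log2 fold change of −2.40 (95% interval −2.84 to −1.96) and a limma adjusted p of 0.0848; it was lower in both lines. On the recovered reads the adjusted p of SCD was 0.485 by edgeR, which also called 1 gene, and 2.94e-22 by DESeq2, which called 29 genes, with SCD as the 1 member. ELOVL7 was the member next to SCD in that fit, at 0.77 (0.24 to 1.30) and a limma adjusted p of 0.951. FADS1 averaged −0.003 (−0.68 to 0.67), its opposite values in the lines cancelling.

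Among 9329 named genes in both tables with at least 5 CPM in both shNT libraries, those nearest to SCD in their pair of log2 ratios were TGFBI, DSEL, TNC, COL5A1 and CDC42EP2. Likeness was the straight-line distance over 2 values per gene, from 4 libraries, and ran from 1.27 for TGFBI to 1.45 for CDC42EP2. TGFBI, a secreted matrix protein, had log2 ratios of −1.30 in UMUC3 and −1.72 in SW780. CDC42EP2, an effector of the GTPase CDC42, had −1.12 and −1.64. None of the other 9 members was among them.

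The remaining comparison set the members beside their partners: 47 genes in 6 lists, of which 40 were kept in UMUC3 and 41 in SW780. With 1 CPM added, no gene of these lists passed the size rule in either line, where 2.47% and 2.18% of all genes in UMUC3 and 1.48% and 1.06% in SW780 were higher and lower. That count depends on the CPM added. By the log2 fold change of the authors' deposited table, 3 of the 40 were lower by 1 or more in UMUC3 (PPARA, FAXDC2 and CYB5R2), 1 of the 41 in SW780 (DEGS2), and 0 higher in either line. Over all genes, the same measure from the authors' deposited table was higher by 1 or more for 4.54% and lower for 4.46% in UMUC3, and higher for 3.07% and lower for 1.83% in SW780. With 0.1 CPM added, PPARA and FAXDC2 passed in UMUC3 and DEGS2 in SW780. The median log2 ratio of the 40 was 0.04 in UMUC3, equal to that of all genes, and that of the 41 was −0.12 in SW780, where all genes stood at −0.008. Of the 40 in UMUC3, 23 were above 0 and 17 below, where 54.3% of all genes were above 0. Their counting intervals lay above 1 for 16 and below 1 for 13, against 35.9% and 29.6% of all genes. Of the 41 in SW780, 15 were above 0 and 26 below, where 48.5% of all genes were above 0. Intervals there lay above 1 for 10 and below 1 for 22, against 28.0% and 29.8% of all genes.

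The elongation cycle needs a reductase (HSD17B12), a dehydratase (HACD1 to HACD4) and a second reductase (TECR). Of its 6 kept genes, 4 in UMUC3 and 3 in SW780 were above 0, with medians of 0.16 and −0.03. HACD4 had the largest ratios, 1.23 CPM in UMUC3 shSCD1 and 0.570 CPM in UMUC3 shNT (40 and 13 reads), and 13.1 CPM in SW780 shSCD1 and 9.06 CPM in SW780 shNT. The more abundant HACD3 stood at 345 and 296 CPM in UMUC3 shSCD1 and shNT, and at 225 and 239 CPM in SW780 shSCD1 and shNT. HACD2 had log2 ratios of 0.18 and 0.11, and HACD1 of −0.01 and −0.14, in UMUC3 and SW780.

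Stearoyl-CoA desaturases draw electrons from cytochrome b5 and its reductases. Of these 6 genes 4 in UMUC3 and 3 in SW780 were above 0, with medians of 0.05 and 0.01. CYB5A, the microsomal cytochrome b5, stood at 46.6 CPM in SW780 shSCD1 and 89.9 CPM in SW780 shNT, a log2 ratio of −0.93, and at 24.2 and 23.5 CPM in UMUC3 shSCD1 and shNT. CYB5B, its outer mitochondrial membrane form, stood at 166 and 110 CPM in UMUC3 shSCD1 and shNT, a log2 ratio of 0.59, and had −0.17 in SW780. Exons of another gene cover 35.1% of its exonic bases, so its count is uncertain. The reductase genes CYB5R1 and CYB5R2 had log2 ratios of −0.61 and −0.71 in UMUC3, and of −0.24 and 0.47 in SW780.

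Of the desaturases and elongases outside the members, ELOVL2, which lengthens polyunsaturated chains beyond ELOVL5, differed by line. It had 4180 reads (128 CPM) in UMUC3 shSCD1 and 1775 reads (77.8 CPM) in UMUC3 shNT, a log2 ratio of 0.72, and 0 reads in both SW780 libraries, which allows up to 0.117 CPM in shSCD1 and 0.0880 CPM in shNT. DEGS1, the desaturase that makes ceramide from dihydroceramide, had log2 ratios of 0.52 in UMUC3 and 0.33 in SW780. FAXDC2 had −0.94 in UMUC3, with 87 reads in shSCD1 and 138 in shNT and a plain fold of 2.26 downward (1.72 to 2.99), and 0.05 in SW780. DEGS2 had 6 reads in SW780 shSCD1 and 42 in SW780 shNT, a log2 ratio of −0.85 with 1 CPM added and a plain fold of 5.25 downward (2.22 to 15.1). FADS6 is in neither table used here, and ELOVL3 did not reach 1 CPM in either line. The 3 kept genes of this list had medians of 0.52 in UMUC3 and 0.05 in SW780, with 2 of 3 above 0 in each line.

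The transcriptional regulators had medians of −0.03 over 14 genes in UMUC3 and −0.22 over 14 in SW780, where 10 were below 0. PPARA, a nuclear receptor for fatty acids, stood at 9.59 CPM in UMUC3 shSCD1 and 20.2 CPM in UMUC3 shNT, a log2 ratio just short of the size rule and a plain fold of 2.10 downward (1.82 to 2.44), and had −0.08 in SW780. PPARG, the adipogenic receptor, had 0.63 in UMUC3 and −0.21 in SW780. NR1H3, the liver X receptor alpha, had 0.24 in UMUC3 and −0.63 in SW780, and MBTPS2, a protease that releases SREBP, 0.10 and −0.45. Genes that supply palmitate were above 0 for 5 of 6 in UMUC3 (median 0.12) and below 0 for 5 of 6 in SW780 (median −0.20). FASN, the fatty acid synthase, stood at 174 and 123 CPM in UMUC3 shSCD1 and shNT, and at 284 and 344 CPM in SW780 shSCD1 and shNT, the sides on which FADS1 stood. ACSS2, ACACB and MID1IP1 had log2 ratios of 0.04, 0.27 and −0.14 in UMUC3 and of −0.28, 0.16 and −0.31 in SW780.

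Genes for the later use of polyunsaturated acids were below 0 for 4 of 5 in UMUC3 and 4 of 6 in SW780, with medians of −0.24 and −0.20. SCP2, a peroxisomal thiolase and sterol carrier, had log2 ratios of −0.50 in UMUC3 and −0.38 in SW780. Exons of processed pseudogenes cover 20.7% of SCP2 exonic bases, so its count is uncertain. HSD17B4, the peroxisomal multifunctional enzyme, had log2 ratios of −0.19 in UMUC3 and −0.16 in SW780. LPCAT3, which places polyunsaturated chains in phospholipids, had −0.32 and −0.24, but exons of another gene cover 65.6% of it, so its count is uncertain.

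**Figure D5:**
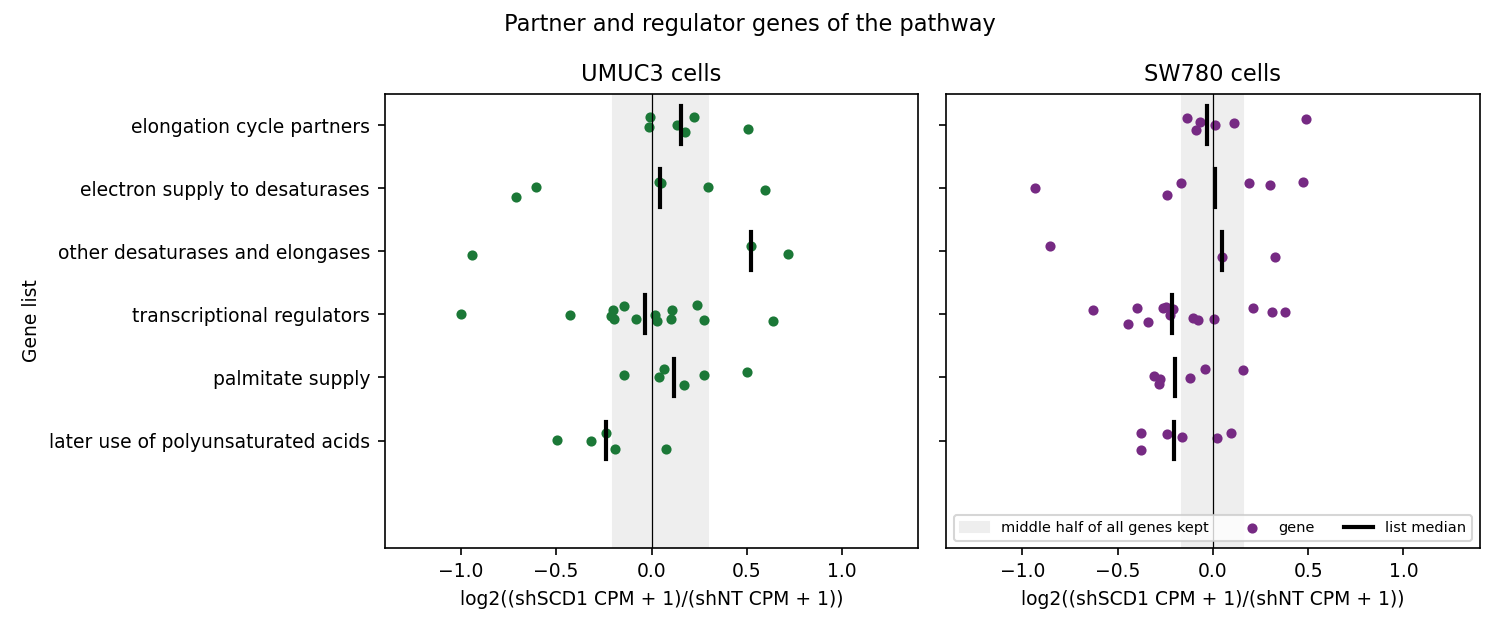
Points are the log2 ratios of the kept genes of each list in UMUC3 and SW780, black bars the list medians, and the grey band the middle 50% of all genes kept. On this scale, with 1 CPM added, PPARA and FAXDC2 in UMUC3 and CYB5A in SW780 lie farthest from 0, short of the size rule, and DEGS2 in SW780 follows at −0.85.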

How the data were processed

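TruSeq libraries of RNA from shSCD1 and shNT cells of both lines were run on a NovaSeq instrument, per the labels' protocols. The submitters' processing notes name hg38 as build. For the aligner, read counter, annotation release and strand setting, nothing is given in the sources. The authors deposited 1 table per line holding a log2 fold change (second library over first), GFOLD (0.01), an E-FDR and 2 columns headed RPKM, per the file headers. The authors deposited the E-FDR, an empirical FDR, as 1 for every gene, and it was not used. The deposited signal in the RPKM columns is a read count scaled to one total, with no gene length in it. Of values above 0, at least 99.9% came within 0.1 reads of whole multiples of a step set for each column, so whole reads were recovered (100% of values up to 20 reads), and CPM was taken from them.

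Fold intervals are exact Clopper-Pearson 95% intervals, and intervals of levels are exact Poisson ones; they cover counting error only, since PCR copies are not told from molecules. A count of 0 allows up to 3 reads. The filter of 1 CPM in the higher library left 14063 genes for UMUC3 and 12880 for SW780. Replicates could not be averaged. In the fit over both lines limma 3.58.1 (trend, cell line as a block, Benjamini-Hochberg) was the main test. Alternatives were edgeR 4.0.16 quasi-likelihood and DESeq2 1.42.0 on the recovered reads. The p-values measure only the spread between these libraries. With cell line as a block, the 1 residual degree of freedom is the difference between the lines in the shSCD1 to shNT ratio. The scripts were tested on simulated data first. Positions, lengths and overlaps came from GENCODE 29, sequences from RefSeq. A table of gene names and the deposited names together named 99.4% and 99.9% of the IDs of UMUC3 and SW780.

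The members and lists were chosen with earlier results of these data known. Named are all members; of each list the genes past the size rule and otherwise the 4 with the largest ratios in either line; and the 5 genes nearest to SCD. BEST1 and genes at 0 reads were named after their values were seen. 1 gene that the rule names is not reported here. Proteins are not shown.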

Additional observations from a re-analysis of the deposited data

Results flagged for a closer look

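FADS1, ELOVL5 and ELOVL1 stood on opposite sides in the lines, beyond counting error in each, as 20.1% of all genes kept in both lines did. The log2 ratio in UMUC3 minus that in SW780 was 1.12 for FADS1 (0.56 and −0.56), −0.56 for ELOVL5 (−0.18 and 0.38) and 0.40 for ELOVL1 (0.09 and −0.31). The side of ELOVL1 in UMUC3 was weak. Its log2 ratio was 0.05 with ratios centred on their median and 0.01 with the authors' fold change. The differences were not tested, since each group held 1 library.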

How the results depend on the processing

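With 1 library per group, counting error is the only error measured within a line, and variation between cultures or library preparations was not; ELOVL4 in UMUC3 shNT rests on 47 reads. The labels number no replicates, and the fit over both lines paired the shSCD1 and shNT libraries by cell line.

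Over the 10 members, 94 of 100 log2 ratios under another scaling, pseudocount or the authors' fold change stayed close to the value reported. Close meant a difference no larger than the distance from the middle to the end of the log2 counting interval. No ratio that was off 0 by counting error changed sign. In UMUC3 the members past the size rule were 1 with 5 CPM added (SCD), where it was 3, and 2 with ratios centred on their median (SCD and ELOVL4). The genes past the size rule in UMUC3 (653) were 1266 with the authors' log2 fold change, 1235 with 0.1 CPM added, 181 with 5 CPM added, 426 with at least 5 CPM and 2391 at 1.5-fold. In SW780 (327) they were 632, 600 and 142 under the first 3 of these and 1127 at 1.5-fold. The median log2 ratio of the 9 members other than SCD in SW780 turned to 0.005 when centred and 0.002 with the authors' fold change. Pathway list genes past the size rule (0 in each line) were 3 in UMUC3 and 1 in SW780 with the authors' fold change, 2 and 1 with 0.1 CPM added, and 0 in each with 5 CPM added, alternatives chosen after seeing the data. The median log2 ratio of the cytochrome b5 list in UMUC3 (0.05) turned to −0.03 with the authors' fold change.

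Over both lines, limma called 1 gene and DESeq2 29 (7 higher and 22 lower, with 1 member, SCD, at −2.43). With no block limma called 0 genes, and 8 (0.0717%) had an unadjusted p under 0.05. With no filter on low values it called 0, and 436 (2.83%) had an unadjusted p under 0.05. Over these alternatives the adjusted p of SCD ran from 2.94e-22 (DESeq2) to 1.00 (no block). The causes were not tested.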

Other observations

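ACSL4, the acyl-CoA synthetase that prefers arachidonate and so acts after the FADS and ELOVL steps, had 0 reads in both UMUC3 libraries, which allows up to 0.0922 CPM in shSCD1 and 0.131 CPM in shNT. In SW780 it stood at 99.3 CPM in shSCD1 and 98.0 CPM in shNT. ELOVL2 had the opposite distribution over the lines, at 0 reads in SW780. Both were singled out after their values were seen.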
